A study of Mus musculus with 4 samples.

Results

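The 10 genes described here encode transcription factors that build the dorsal horn, the part of the spinal cord where sensory axons end: Gbx1, Lbx1, Lmx1b, Tlx3, Pax2, Pax8, Lhx1, Lhx5, Maf and Zic1. They were chosen by name as a functional group, with earlier results of these data known, and all 10 were found among the 21883 gene features of each of the 2 deposited tables. The libraries came from young adult male wild-type mice of the BL6/C57 strain, in which the sciatic and femoral nerves of the left leg had been transected 7 days before. RNA was taken from dorsal root ganglia (DRG, the ganglia that hold the sensory cell bodies) at lumbar levels 4 to 6 and from the lumbar dorsal spinal cord, on the cut side (ipsilateral) and across from it (contralateral). The 4 groups hold 1 library each, and no source used here says how many animals went into a library. All 4 groups had the same operation, so the contralateral side is not tissue of unoperated animals.

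In the embryonic dorsal horn several of these factors take part in assigning newborn neurons to an inhibitory or an excitatory fate. Lbx1, a homeodomain protein, marks a large class of association neurons that includes the late-born ones. Within that class, Pax2, Pax8, Lhx1 and Lhx5 mark neurons that will release GABA or glycine, and Gbx1 is expressed in inhibitory neurons of the dorsal horn. Tlx3 and Lmx1b mark the glutamatergic neurons, where Tlx3 opposes the inhibitory program that Lbx1 allows. Maf, a bZIP factor, acts in deep dorsal horn neurons and in touch receptor neurons of the DRG and is also made by macrophages, and Zic1, a zinc finger factor of the dorsal neural tube, is also expressed in the meninges.

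Of the 10 genes, 6 have an upstream sequence in the RefSeq promoter table (build GRCm38.p6). Entries for Gbx1, Lbx1, Lhx5 and Maf were not found. Shown are the 250 bases before the annotated start of 3 genes, each on the minus strand. Pax8 is the one gene with an entry among the 3 called higher in cord below, and Lmx1b and Tlx3 are the excitatory-fate pair, whose levels in the 2 tissues run in opposite order. Capitals mark the homeodomain core TAAT, searched on both strands (TAAT or ATTA), which may overlap one another.
Pax8, chr2:24475600-24475849: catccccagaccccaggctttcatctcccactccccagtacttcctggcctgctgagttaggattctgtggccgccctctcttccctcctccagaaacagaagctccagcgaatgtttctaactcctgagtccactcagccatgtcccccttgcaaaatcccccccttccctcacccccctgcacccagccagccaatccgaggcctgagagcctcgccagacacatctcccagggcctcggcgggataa
Lmx1b, chr2:33641099-33641348: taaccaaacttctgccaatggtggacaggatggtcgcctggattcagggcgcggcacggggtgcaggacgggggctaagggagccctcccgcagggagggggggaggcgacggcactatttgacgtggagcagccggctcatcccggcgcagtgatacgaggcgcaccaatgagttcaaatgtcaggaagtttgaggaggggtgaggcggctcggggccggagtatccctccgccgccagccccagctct
Tlx3, chr11:33203589-33203838: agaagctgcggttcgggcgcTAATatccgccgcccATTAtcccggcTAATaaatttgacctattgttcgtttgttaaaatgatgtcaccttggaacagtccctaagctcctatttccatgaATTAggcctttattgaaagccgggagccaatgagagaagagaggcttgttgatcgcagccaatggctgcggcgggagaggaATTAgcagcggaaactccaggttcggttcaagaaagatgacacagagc
The Tlx3 stretch holds 5 such cores and the other two hold 0. Of 32851 promoter windows of the same length, 54.9% hold at least 1, and how many hold 5 was not counted. The 6 genes have 8 windows, of which 3 hold at least 1 core: those of Tlx3 and Lhx1 and 1 of Pax2. The Tlx3 stretch has a GC content of 48.8%, against 60.4% for Pax8, 65.2% for Lmx1b and a median of 52.4% over all windows. These matches describe letters in a window and are not binding sites.

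Levels are given in FPKM (fragment counts divided by transcript length and by the mapped total) as the authors deposited them. A log2 ratio is the log2 of (ipsilateral + 1) over (contralateral + 1), which understates differences of genes near or below 1 FPKM. A gene counts as measured at 1 FPKM or more on either side. Plain folds have no pseudocount, and their 95% intervals use the standard error that follows from the fold and the test statistic in the authors' deposited table. That interval covers error within these 2 libraries and not variation between animals, so no difference below has a replicate check. Total read numbers are not given. Reads behind a value were estimated as the numbers whose counting error alone would give the implied standard error, and any further error term in the authors' model would make the true numbers higher.

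In the ipsilateral cord, 3 of the 9 measured genes stood 2-fold or more above the contralateral side and 0 stood 2-fold or more below it. The same held for 4.46% and 1.64% of the 13351 features measured in cord. The 3 genes were Gbx1, Lbx1 and Pax8, and they are the 3 of the 10 that the authors' deposited table calls significantly different. Over all features with a completed test, the authors' deposited table calls 4.52% higher and 1.55% lower. At a stricter q of 0.01 the authors' deposited table would leave 1 of the 3, Gbx1. Gbx1 and Lhx1 passed the filter at 1 FPKM only through the ipsilateral side, where they were higher, and Tlx3, lower ipsilaterally, stayed under it on both sides. Over all 10 genes, 8 were above a log2 ratio of 0 and 2, Lhx5 and Tlx3, were below, with a median of 0.53. The median was 0.58 over the 9 measured genes and 0.02 over all measured features. Because the filter and the choice of genes both bear on these counts, they describe the 10 genes and support nothing further.

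**Figure D1:**
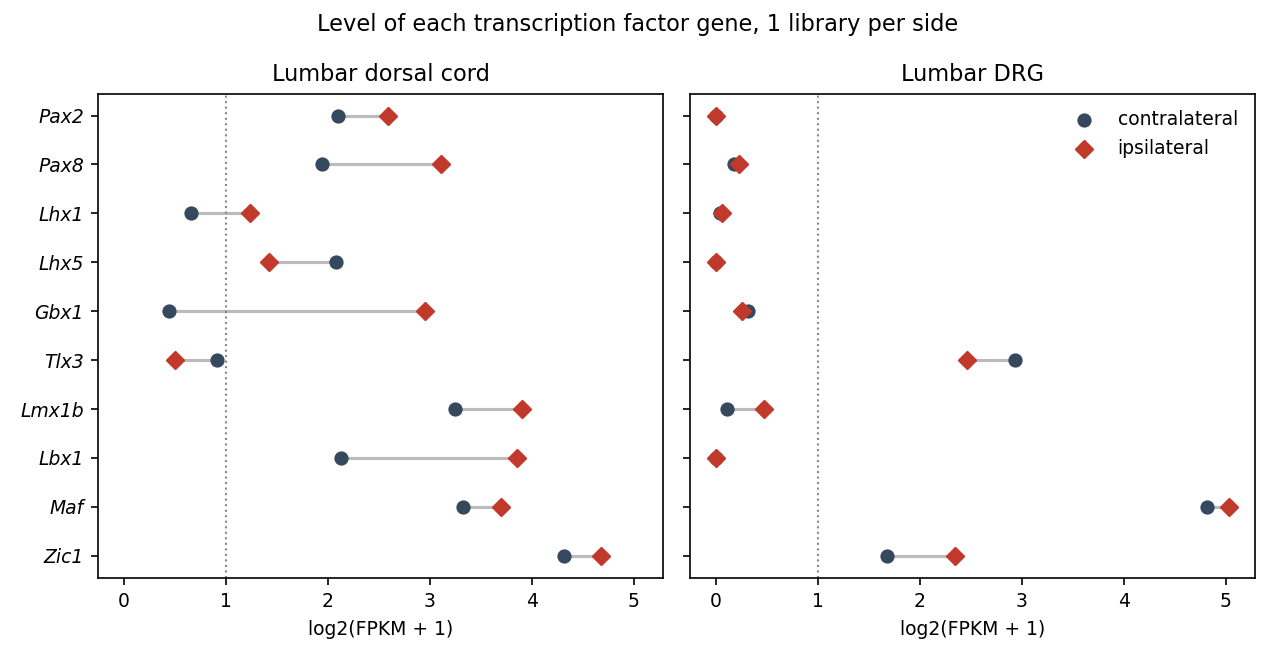
Levels of the 10 genes as log2(FPKM + 1) in dorsal cord (left) and DRG (right). Circles are the contralateral library and diamonds the ipsilateral library, 1 of each per tissue, and the dotted line marks 1 FPKM. In cord the widest gaps are those of Gbx1, from 0.36 to 6.74 FPKM, and Lbx1, from 3.38 to 13.5 FPKM. In DRG only Maf, Tlx3 and Zic1 lie to the right of the dotted line.

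Among the genes of inhibitory neurons, Gbx1 had the largest log2 ratio. It was at 6.74 FPKM in ipsilateral and 0.36 FPKM in contralateral cord, a log2 ratio of 2.51 and percentile 99.6 of the measured features. The plain fold was 18.9, with an interval of 6.23 to 57.1 (q = 4.38e-05 in the authors' deposited table). The contralateral value rests on few reads, about 3.35 against 47.0 ipsilaterally by the estimate above. In DRG, Gbx1 was at 0.20 FPKM ipsilaterally and 0.24 FPKM contralaterally, where the estimate gives 5 and 4 reads. Ipsilateral cord was the 1 library of the 4 above 1 FPKM. The cord and DRG values were normalised separately, and the low ones rest on few reads. Whether Gbx1 was at background in contralateral cord cannot be told from them. Gbx1 lies on mm9 chromosome 5 from 24010244 to 24032666, and no other feature of the tables overlaps it.

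Pax8, a paired-box factor, was at 7.62 FPKM in ipsilateral and 2.85 FPKM in contralateral cord. Its log2 ratio was 1.16 and its plain fold 2.68, with an interval of 1.5 to 4.79 (q = 0.0234 in the authors' deposited table). The estimated reads were 34 and 17.1. Pax2, its close relative and a standard label of inhibitory dorsal horn neurons, was at 5.01 FPKM ipsilaterally and 3.29 FPKM contralaterally. The Pax2 fold of 1.52 had an interval of 0.71 to 3.27, and the authors' deposited table does not call it (q = 0.586). So the interval of Pax2 holds both no difference and the fold of Pax8. Pax8 lies on mm9 chromosome 2 (24276080 to 24331086) and Pax2 on chromosome 19 (44831884 to 44910517).

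The LIM homeodomain genes Lhx1 and Lhx5, which act together in keeping Pax2 on in these neurons, lay on opposite sides of no difference. Lhx1 was at 1.35 FPKM in ipsilateral and 0.57 FPKM in contralateral cord (log2 ratio 0.58, fold 2.36, interval 0.92 to 6.02). Lhx5 was at 1.68 FPKM ipsilaterally and 3.22 FPKM contralaterally (log2 ratio -0.65, fold 0.52, interval 0.26 to 1.06). Both intervals include 1, and the authors' deposited table calls neither (q = 0.293 for Lhx1 and 0.290 for Lhx5). The estimated reads were 12 and 6.86 for Lhx1 and 10.7 and 27.5 for Lhx5, ipsilateral first. Lhx1 is on mm9 chromosome 11 (84332881 to 84339036) and Lhx5 on chromosome 5 (120881895 to 120891466).

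Lmx1b, the excitatory-fate factor measured in cord, was at 14.0 FPKM ipsilaterally and 8.51 FPKM contralaterally. Its log2 ratio was 0.66, and its fold of 1.64 had an interval of 0.93 to 2.91 (q = 0.322 in the authors' deposited table). Tlx3 was at 0.41 FPKM ipsilaterally and 0.89 FPKM contralaterally, with about 3.10 and 9 reads. The Tlx3 fold of 0.46 had an interval of 0.13 to 1.69, so no direction can be read from it at this depth. Lmx1b lies on mm9 chromosome 2 (33420056 to 33496031) and Tlx3 on chromosome 11 (33100752 to 33103588).

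Summed FPKM set the fates side by side. The 5 inhibitory-fate genes summed to 22.4 FPKM in ipsilateral and 10.3 FPKM in contralateral cord, a ratio of 2.18. The 2 excitatory-fate genes summed to 14.4 and 9.40 FPKM, a ratio of 1.53. Inhibitory over excitatory sums therefore stood at 1.56 ipsilaterally and 1.10 contralaterally. Gbx1 and Pax8 made up most of the higher ipsilateral sum, while Lhx5 was lower on that side. No interval was computed for these sums. The log2 of the side difference in that ratio was 0.51. Without Gbx1, whose contralateral value rests on about 3.35 reads, the inhibitory-fate sums were 15.7 and 9.93 FPKM, a ratio of 1.58, and that log2 difference was 0.041. Without Pax8 and Lmx1b, the genes with the largest mean over both sides, it was 2.10, with Tlx3 alone left as the excitatory sum. The balance of the sums therefore rests on single genes.

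Lbx1, which both fates share, was at 13.5 FPKM in ipsilateral and 3.38 FPKM in contralateral cord. Its log2 ratio was 1.73 and its plain fold 3.99, with an interval of 1.84 to 8.66 (q = 0.0145 in the authors' deposited table). The estimated reads were 25.4 and 8.58. The feature spans 1509 bases on mm9 chromosome 19 (45308218 to 45309726), and the RefSeq gene in the later build GRCm38 spans 4158 bases. Features of Lmx1b, Pax2, Pax8, Lhx1 and Zic1 also span fewer bases than their RefSeq genes, Zic1 at 5455 against 7711. The annotation behind the deposited values is not known here. Lbx1 was listed at 0 in both DRG libraries.

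Zic1 and Maf, the broader factors, were close between the sides of the cord. Zic1 was at 24.6 FPKM ipsilaterally and 18.9 FPKM contralaterally, the highest of the 10 on both sides, with a fold of 1.3 and an interval of 0.91 to 1.86. Maf was at 12 FPKM ipsilaterally and 9.04 FPKM contralaterally, with a fold of 1.32 and an interval of 0.88 to 1.99. The authors' deposited table calls neither (q = 0.427 for Zic1 and 0.467 for Maf). Their estimated reads ran from 45.3 to 60.4, and their intervals were the narrowest of the 10 genes in cord. Both figures come from the same standard errors, so neither accounts for the other. Zic1 is on mm9 chromosome 9 (91255183 to 91260637) and Maf on chromosome 8 (118227153 to 118230794).

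**Figure D2:**
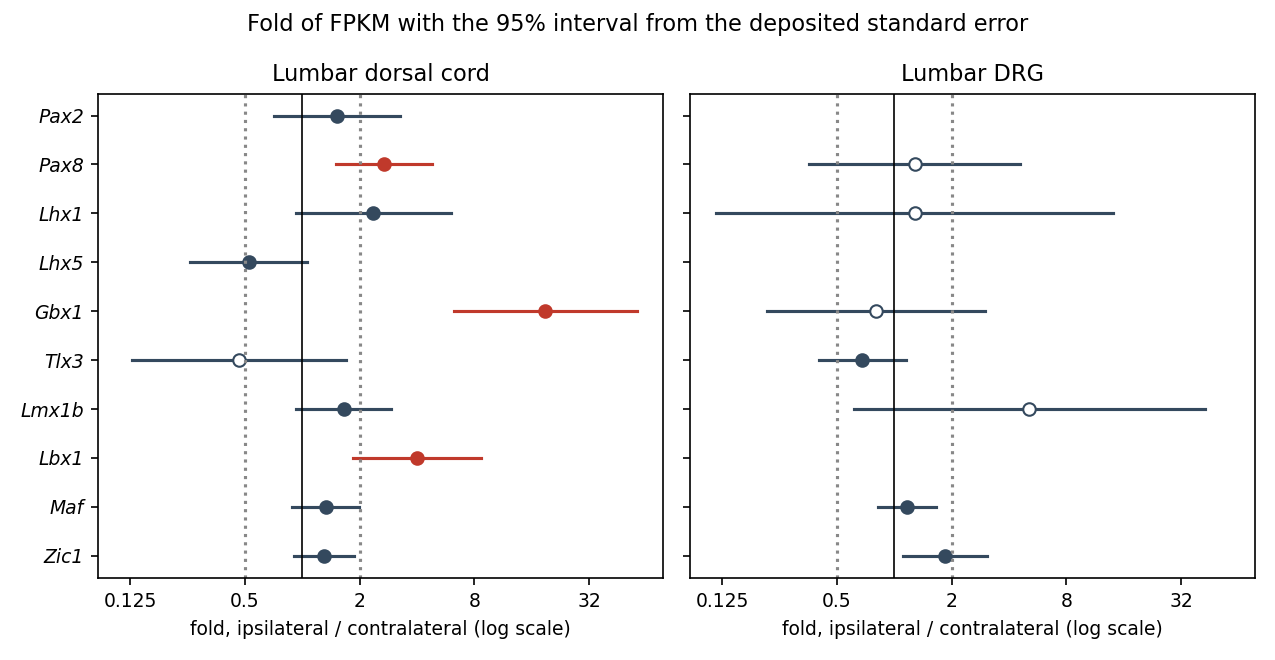
Plain fold of FPKM, ipsilateral over contralateral, on a log scale, in dorsal cord (left) and DRG (right). Bars are 95% intervals based on the authors' deposited table, filled points are measured genes, open points stayed under 1 FPKM on both sides, and red marks the authors' calls. Dotted lines mark 2-fold either way. Only the interval of Gbx1 in cord, 6.23 to 57.1, lies wholly above 2-fold, and genes listed at 0 on a side have no point.

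The cord libraries differed by GC content, and the members are GC-rich, with a median of 57.9% over the 9 measured genes against 49.8% over all measured features. Over 20 classes of measured features sorted by the GC content of the longest annotated transcript, the median log2 ratio went from -0.27 in the lowest class to 0.25 in the highest. Gbx1 (60.8% GC), Lbx1 (61.6%) and Pax2 (62.2%) fall in the highest class, in which 8.13% of features were at least 2-fold higher. Pax8, at 50.1% GC, falls in a middle class with a median of 0.07, in which 5.47% were. With the median of each class subtracted, the log2 ratio was 2.26 for Gbx1, 1.47 for Lbx1 and 1.10 for Pax8, so the 3 genes stayed past 2-fold. Lhx5 was at -0.88 and Pax2 at 0.23. The corrected median over the 9 genes was 0.42, against 0.00 over all measured features, and 3.69% of features were 2-fold higher after the correction.

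**Figure D3:**
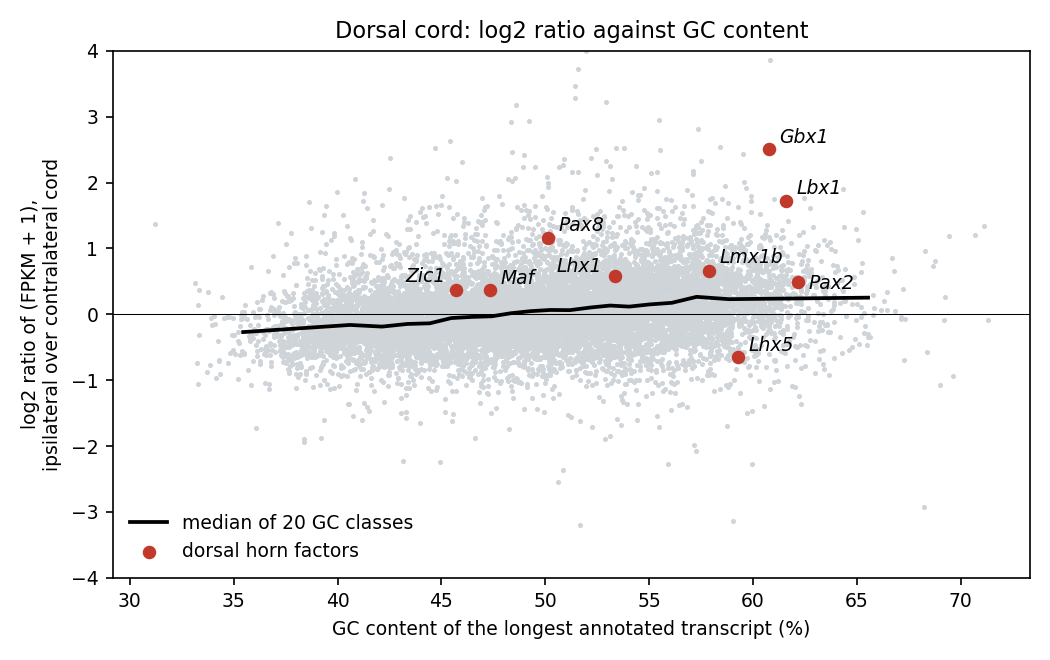
Log2 ratio of (FPKM + 1), ipsilateral over contralateral cord, against GC content in percent, for 12055 measured features with an annotated transcript (grey), with the 9 measured dorsal horn factors in red. The black line joins the medians of the 20 GC classes and climbs from -0.27 to 0.25. Gbx1 is at 2.51 and Lbx1 at 1.73, in the highest class, where 8.13% of features were at least 2-fold higher. The axis stops at a log2 ratio of 4 either way, which leaves out 38 features.

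Other markers were compared in the same cord libraries. Of 17 ventral horn markers, 8 were measured, with 1 at least 2-fold higher (Prph, a peripheral neurofilament gene, at 8 against 3.14 FPKM, log2 ratio 1.12) and a median of -0.03. Summed FPKM over the 17 listed was 19.1 ipsilaterally and 15.1 contralaterally. Prph, which is also on the sensory neuron list, differed between the sides by more than these sums did. Chat, the defining enzyme gene of motor neurons, was at 1.55 and 1.60 FPKM, and the motor neuron factors Mnx1 and Isl2 were listed at 0 on both sides. En1, a factor of ventral inhibitory neurons, was at 1.16 against 0.16 FPKM and is called in the authors' deposited table (q = 0.0327). En1 passed the filter at 1 FPKM only through the ipsilateral side, where it was higher. Among 11 measured pan-neuronal genes, 0 were past 2-fold, with a median of -0.09 and a range of -0.90 to 0.71. The authors' deposited table calls 2 of them lower, the RNA-binding protein genes Elavl2, at 26.1 against 49.6 FPKM (-0.90), and Elavl4, at 39.9 against 60.9 FPKM (-0.60). Among 16 measured myeloid markers, 14 passed 2-fold upward with a median of 1.86, and their summed FPKM over the 17 listed was 882 ipsilaterally and 186 contralaterally. Maf is also a gene of myeloid cells, and the part of those cells in its level was not tested. Among 10 oligodendrocyte, 9 astrocyte, 5 Schwann cell and 9 endothelial markers measured in cord, 0 passed 2-fold, with medians of 0.03, 0.05, -0.14 and 0.09. The authors' deposited table calls 1 endothelial marker higher and 0 of the other 3 lists. Of 9 measured sensory neuron markers 2 passed 2-fold upward, Calca and Prph, with a median of 0.06. The part of other cell types in the differences of Gbx1, Lbx1 and Pax8 was not tested. In bulk tissue, a change in the number of cells of a type and a change of RNA per cell cannot be told apart.

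Genes by which mature inhibitory neurons are known lay on both sides of no difference. Of 12 measured in cord, 4 were above a log2 ratio of 0 and 8 below, with a median of -0.18. Of these, 2 passed 2-fold upward and 0 downward, against 4.46% and 1.64% of all measured features. Gad1, a GABA synthesis enzyme gene, was at 45.8 FPKM on the cut side and 91.8 FPKM on the other (-0.99 on the log2 scale), and the authors' deposited table calls it lower (q = 0.00355). Slc6a5, the glycine transporter gene of inhibitory endings, was at 65.4 against 104 FPKM (-0.66), and Slc32a1, the vesicular transporter of both transmitters, at 54.9 against 70.3 FPKM (-0.35). The 2 higher genes were the neuropeptide genes Npy, at 87.3 against 25.9 FPKM, and Gal, at 33.8 against 10.3 FPKM, both called higher in the authors' deposited table, which were also far higher in ipsilateral DRG (373 against 6.26 and 232 against 8.47 FPKM).

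Of 17 measured genes listed for excitatory neurons in cord, 3 passed 2-fold upward and 0 downward, against 4.46% and 1.64% of all measured features. The median of the 17 was -0.17. Bulk RNA does not show which neurons the RNA of a listed gene came from. The higher genes were the peptide genes Npff at 5.87 against 1.06 FPKM (log2 ratio 1.74), Penk at 335 against 160 FPKM (1.06) and Tac2 at 105 against 50.1 FPKM (1.05). The authors' deposited table calls Penk (q = 0.00174) and Tac2 (q = 0.015) and not Npff (q = 0.122). Slc17a6, the vesicular glutamate transporter gene of most dorsal horn excitatory neurons, was at 68.4 against 95.4 FPKM (-0.47).

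A second list holds other transcription factors of the dorsal horn. Of 24 measured in cord, 0 were past 2-fold and 18 were below a log2 ratio of 0. Their median was -0.07, with a range of -0.77 to 0.52. With the median of each GC class subtracted, the list's median was -0.11. The authors' deposited table calls 1, Nfib, a nuclear factor I gene, lower at 12.4 against 20.1 FPKM (q = 0.00301). Dach1 was at 2.35 against 4.70 FPKM (-0.77). Prrxl1, a homeodomain factor of excitatory dorsal horn and sensory neurons that acts with Tlx3 and Lmx1b, was at 2.76 against 4.22 FPKM (-0.47). Ptf1a, which sets the inhibitory fate before Pax2 and Lhx5 appear, was listed at 0 on both sides.

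Among 30 family relatives of the 10, 11 were measured in cord. Of these, 3 passed 2-fold upward and 0 downward, against 4.46% and 1.64% of all measured features. Of 15 with a completed test, the authors' deposited table calls 2 higher and 1 lower, against 4.52% and 1.55% of tested features. The median of the 11 was 0.17, and 0.05 with the median of each GC class subtracted. Pax6, a paired-box gene of neural progenitors, was at 7.11 against 1.99 FPKM (log2 ratio 1.44, q = 0.00362 in the authors' deposited table). Mafa, a relative of Maf found in some dorsal horn and touch neurons, was at 1.56 against 0.046 FPKM (1.29, q = 0.027 in the authors' deposited table). It passed the filter at 1 FPKM only through the ipsilateral side, and Zic4 only through the contralateral side, each where it was higher. The filter therefore bears on this count and median. Maff was at 3.94 against 1.45 FPKM (1.01), and Mafg, another small Maf gene, at 23.5 against 47.7 FPKM (-0.99, called lower in the authors' deposited table with q = 0.014). Zic2, at 3.48 against 4.32 FPKM (-0.25), and Zic4, the neighbour of Zic1 at 0.90 against 1.42 FPKM (-0.35), were both lower where Zic1 was higher, and the authors' deposited table calls none of the 3.

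Genes of partner proteins made up another list. Of 19 measured cofactor genes, 0 were past 2-fold in cord, with a median of 0.05 and a range of -0.59 to 0.90. Ldb1, which encodes the bridge that binds LIM homeodomain proteins such as Lhx1, Lhx5 and Lmx1b, had the largest log2 ratio, 0.90, at 29.4 against 15.2 FPKM, and is called higher in the authors' deposited table (q = 0.0266). With the median of its GC class subtracted it was at 0.64. The Lbx1 corepressor gene Skor1 was at 1.57 against 1.27 FPKM (0.18) and its relative Skor2 at 2.33 against 1.33 FPKM (0.52).

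**Figure D4:**
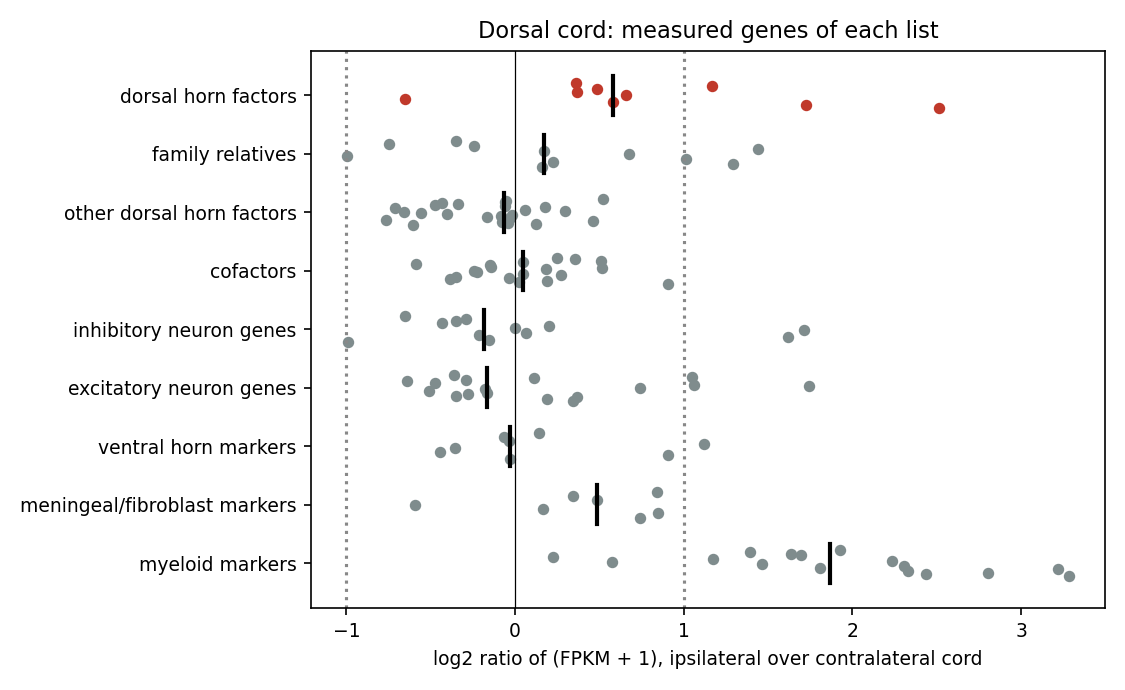
Log2 ratio of (FPKM + 1), ipsilateral over contralateral cord, for the measured genes of 9 lists, 1 point per gene with the list's median as a black bar and dotted lines at 2-fold. The dorsal horn factors (red) have a median of 0.58 and spread from -0.65 to 2.51. The other dorsal horn factors have a median of -0.07 and stay between -0.77 and 0.52. These lists differ in GC content (median 57.9% against 44.9%), and both were chosen with earlier results known. With the median of each GC class subtracted, their medians are 0.42 and -0.11. Gbx1 and Lhx1, and Mafa and En1 of other lists, passed the filter only through the ipsilateral side. The myeloid markers have the largest median, 1.86.

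In DRG, 3 of the 10 genes were measured: Maf, Tlx3 and Zic1. Of these, 0 passed 2-fold in either direction, against 3.04% and 0.784% of the 13137 features measured in DRG, and the authors' deposited table calls 0 of them (4.64% of tested features are called higher and 1.9% lower). Their median log2 ratio was 0.22, against 0.05 over all measured features. Lbx1 and Pax2 were listed at 0 in both DRG libraries, and Lhx5 at 0 contralaterally. Gbx1, Pax8, Lhx1 and Lmx1b were at 0.03 to 0.38 FPKM. For Lhx1 these levels correspond to 2 reads ipsilaterally and 1 contralaterally. Lmx1b, at 0.38 FPKM ipsilaterally and 0.075 contralaterally, rests on about 7.68 and 0.96 reads, and its fold of 5.11 had an interval of 0.61 to 42.7.

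Tlx3 and Maf were the members with higher levels in DRG than in cord, where they also belong to sensory neurons. The 2 tables were normalised separately, so levels set across tissues are approximate. Tlx3 was at 6.66 FPKM in contralateral DRG against 0.89 in contralateral cord, and Maf at 27.2 against 9.04 FPKM. Conversely Lmx1b was at 8.51 FPKM in contralateral cord against 0.075 in DRG, and Zic1 at 18.9 against 2.21 FPKM. All 17 sensory neuron markers were measured in DRG and 9 of them in cord. Over the 17, summed FPKM was 3249 and 3380 in DRG and 297 and 238 in cord, ipsilateral first. Avil, a gene nearly restricted to sensory neurons, was at 270 and 272 FPKM in DRG and 0.077 and 0 FPKM in cord, ipsilateral first.

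Between the sides of the DRG, Tlx3 was at 4.51 FPKM ipsilaterally and 6.66 FPKM contralaterally (log2 ratio -0.47), a fold of 0.68 with an interval of 0.40 to 1.15 (q = 0.539 in the authors' deposited table). The 17 sensory neuron markers had a median of -0.45, with 14 below 0 and 1 past 2-fold downward. Avil was at 270 against 272 FPKM (-0.01). Among related homeodomain genes of DRG neurons, Isl2 was at 31.0 against 55.3 FPKM (-0.82) and is called lower in the authors' deposited table (q = 0.0283). Isl1 was at 25.8 against 36.1 FPKM (-0.47), Prrxl1 at 12.6 against 17.6 FPKM (-0.45) and Tlx2, the paralog of Tlx3, at 15.8 against 22.3 FPKM (-0.47). Whether the Tlx3 difference goes with fewer sensory neurons in the library was not tested.

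Maf was at 31.8 FPKM in ipsilateral and 27.2 FPKM in contralateral DRG (log2 ratio 0.22), a fold of 1.17 with an interval of 0.82 to 1.66 (q = 0.809 in the authors' deposited table). In DRG all 17 myeloid markers had a log2 ratio over 0 and 12 passed 2-fold upward, with a median of 1.13 and summed FPKM of 382 against 169. The share of Maf that comes from myeloid cells and from sensory neurons was not tested.

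Zic1 was at 4.07 FPKM in ipsilateral and 2.21 FPKM in contralateral DRG (log2 ratio 0.66), a fold of 1.84 with an interval of 1.11 to 3.05. The interval excludes 1 and the p-value in the authors' deposited table is 0.0174, but the q-value is 0.158 and the gene is not called. Zic2 was also higher, at 2.29 against 0.86 FPKM (0.83, q = 0.044 in the authors' deposited table), while Zic4 stayed under 1 FPKM. Zic2 passed the filter at 1 FPKM only through the ipsilateral side. Meningeal and fibroblast markers were higher on the same side. All 14 measured had a log2 ratio over 0 and 7 passed 2-fold upward, with a median of 0.95 and summed FPKM of 876 against 429. Among them, Slc6a13, a transporter gene of the meninges, was at 4.23 against 1.57 FPKM (1.03), and Aldh1a2, a retinoic acid synthesis gene, at 5.16 against 1.44 FPKM (1.33). Their part in the Zic1 difference was not tested. In cord the same list had 7 measured members, 6 above a log2 ratio of 0 and 1 below, with 0 past 2-fold and a median of 0.49. Their list's summed FPKM there was 217 against 171. Of 10 with a completed test, the authors' deposited table calls 1 higher and 0 lower. With the median of each GC class subtracted, that cord median was 0.31.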

How the data were processed

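TopHat 1.4.0, Cuffdiff 1.3.0 and the mouse build mm9 are named in the submitters' processing notes. The annotation, filters and strand setting are not given in the sources used here. Per the file headers, the authors deposited 1 table per tissue with FPKM on each side, p-values, q-values, a test statistic and a log2 fold change. The authors' calls compare 1 library with 1 library.

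The log2 ratio was computed with a pseudocount of 1 FPKM, and no p-value was computed. The standard error is the log2 fold change over the test statistic. A two-sided normal test of that statistic gives the authors' p-value for 100% of features above 0 on both sides (tolerance 0.001). Where the standard error implied 1 read per side, the FPKM ratio gave the worth of a read, ipsilateral over contralateral: 1.35 in cord (20 of 20 features) and 0.639 in DRG (50 of 54). GC content came from GENCODE M21 transcripts, matched by symbol for 90.3% of measured features in cord. Starts were raised by 1 from the file, after which 4 members span as many bases as their RefSeq genes. The ratio and GC steps were tested on simulated data. Python 3.11.15 and pandas 2.3.3 were used. The tables held 0 other columns of per-sample values.

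The members and gene lists were chosen with earlier results of these data known. The named genes are all 10 members and, from each list, up to 4 measured genes per tissue whose log2 ratio was farthest from 0. Features overlapping a member would also be named, and there were 0. Chat, Mnx1 and Isl2 in cord, Elavl2, Elavl4, Slc32a1, Slc17a6, Prrxl1, Ptf1a, Skor1, Avil, Isl1, Tlx2 and the Zic relatives were named for their roles after their values were seen. The alternatives were other pseudocounts, filters, rescalings, the authors' test status and other q thresholds. The GC correction, a count by interval and a sum without Gbx1 were added after seeing the data. Some list genes are not reported here by name.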

Additional observations from a re-analysis of the deposited data

How the results depend on the processing

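The 3 genes 2-fold higher in cord were 4 at a pseudocount of 0.1 FPKM, with Lhx1 at a log2 ratio of 1.11, and 2 at 3 FPKM, and stayed 3 with no filter, a filter at 5 FPKM, median or upper-quartile rescaling, the GC correction and the authors' completed tests. Counting only genes whose interval of the plain fold lies clear of 2-fold left 1, Gbx1. At q up to 0.01 the authors' deposited table calls 1 of the 10 in cord, again against 3. In DRG the count was 0 under every alternative run. The median log2 ratio in cord ranged from 0.35 to 0.71. The log2 of the inhibitory over excitatory sums, ipsilateral against contralateral, was 0.51. It was 0.041 without Gbx1, and 2.10 without Pax8 and Lmx1b, because Tlx3 alone, under 1 FPKM, is then the excitatory sum. With mean log2 ratios in place of sums it was 0.70. All 60 alternative values of single genes moved by less than their interval (45 in cord and 15 in DRG). That interval covers error within the libraries and does not measure the effect of a pseudocount or rescaling. Staying within it is therefore no sign that a value is robust to these choices. Gbx1 in cord, with few contralateral reads, had a log2 ratio of 2.51 and still counted as unmoved under both other pseudocounts. It was 3.90 at 0.1 FPKM and 1.54 at 3 FPKM. No paired analysis was possible because each group has 1 library. Depth limits Gbx1 contralaterally, Tlx3 in cord, and the genes under 1 FPKM in DRG.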

Other observations

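The 5 other features whose levels over the 4 libraries lay nearest to the median profile of the 10 factors (3.26 FPKM in contralateral and 7.17 in ipsilateral cord, 0.10 and 0.18 in DRG) were Trhr, Wnt7b, Nkx2-2, Ccdc153 and Glp1r. The measure was the Euclidean distance of log2(FPKM + 1) over 4 libraries, and ran from 0.20 for Trhr to 0.33 for Glp1r. The median was taken in each library separately, so its cord values rest on different genes. Their gap is not the side difference of a typical factor, as the median log2 ratio over the 10 genes in cord was 0.53. The 5 features were picked to match this profile, so their own side differences follow from it. Trhr, the receptor gene of thyrotropin-releasing hormone, stood at 6.82 FPKM on the cut side of the cord and 3.67 FPKM on the other. Wnt7b, a Wnt ligand gene, was at 7.69 and 3.42 FPKM, and Nkx2-2, a homeodomain factor of the ventral neural tube and of oligodendrocyte precursors, at 7.37 and 3.65 FPKM. Nkx2-2 and Ccdc153 were listed at 0 in both DRG libraries. With 4 values per gene and a median that rests on genes of unlike pattern, the likeness describes these libraries only.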
